A study of Arabidopsis thaliana with 6 samples.

Results

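The regions described here carried a PIF4-Myc peak in list 1 and in list 2 and none in list 3. Peaks of 3 deposited lists were merged wherever they overlapped by at least 1 bp, and 655 of the 15015 merged regions on chromosomes 1 to 5 met this rule. The regions were chosen by measured values, the presence of a called peak in each list, so folds, tags, scores and widths are given as description, without a test. Each region is placed at the summit of its list 2 peak. Another 785 regions had a peak in all 3 lists, 1626 in lists 2 and 3 without list 1, and 1005 in list 2 alone.

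PIF4 is a basic helix-loop-helix transcription factor that accumulates in darkness, binds E-box elements such as the G-box and promotes cell elongation. Active phytochrome binds it in the light and leads to its breakdown. Chromatin immunoprecipitation recovers the DNA bound to a tagged protein, and a peak is a place where reads of that DNA pile up above a control.

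The material was whole Arabidopsis thaliana seedlings, 3 days old, kept dark at 21 °C after 3 h of white light. One group of 3 libraries came from transgenic seedlings that overexpress Myc-tagged PIF4 and the other, also of 3, from the wild type, with the same anti-Myc antibody. An overexpressed, tagged factor can occupy sites that the native protein would not. Each library pooled DNA of 4 ChIP assays from 2 biological replicates. The headers gave 12766185, 9385807 and 12292381 treatment tags for lists 1, 2 and 3. The list 1 header gave 112342435 tags after filtering, more than its total, so the scale of list 1 tags and folds is uncertain and they are read only within list 1. The headers named the same wild-type control for lists 1 and 2 and another one for list 3. A missing list 3 peak therefore cannot be told apart as a difference of the PIF4-Myc library or of its control, and agreement of lists 1 and 2 is not agreement of independent controls.

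The list 2 peaks of these regions were weak beside those of regions that list 3 also held. Fold enrichment, the caller's ratio of observed to expected tags, had a median of 2.20 and ran from 1.05 to 5.14 over the 655 list 2 peaks. The median was 2.94 in regions of all 3 lists, 2.70 in regions of lists 2 and 3 and 2.13 in list 2 alone. The list 2 score, −10 times log10 of p with a cutoff at 50, lay below 60 for 200 of the 655 peaks (30.5%). That share was 4.1% in regions of all 3 lists, 9.4% in lists 2 and 3 without list 1 and 42.4% in list 2 alone. The authors' false discovery rate in list 2 had a median of 77.45%, and 3 of the 655 peaks stood at 1% or less.

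In list 1 these regions had the higher medians. The 712 list 1 peaks of these regions had a median fold of 1.13 and a median score of 200.89, while the 920 list 1 peaks of regions in all 3 lists had 0.98 and 153.74. Peaks of list 1 alone had 0.98 and 154.3. A fold below 1 was given to 247 of the 712 peaks (34.7%), against 51.8% of those in regions of all 3 lists. All 712 tag values of list 1 were multiples of 5, so they are read as a score and not as counts.

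**Figure D1:**
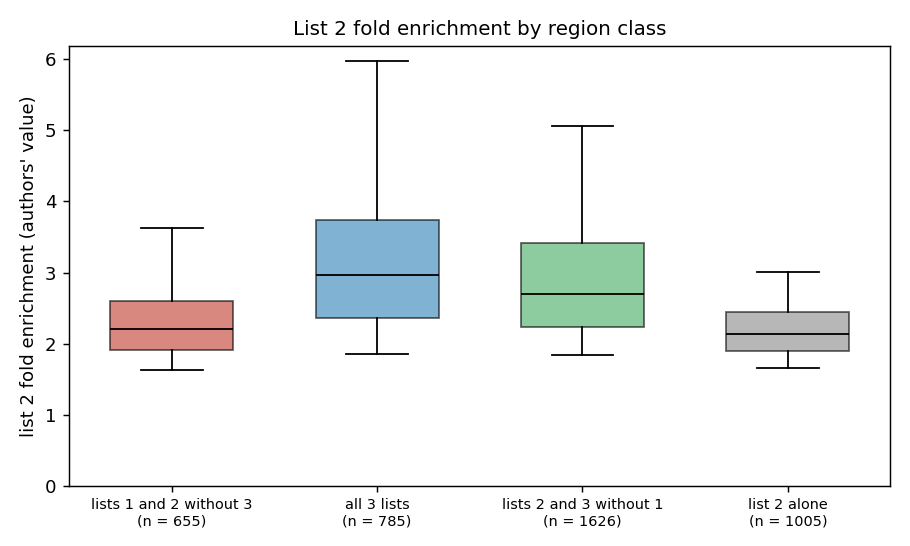
Authors' fold enrichment of the list 2 peak with most tags (y axis) by region class (x axis). Boxes span the quartiles with the median as a line, and whiskers run from the 5th to the 95th percentile of regions. The median is 2.20 in the regions of lists 1 and 2, below the classes with a list 3 peak.

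Some regions missed a list 3 peak by a few bases. The nearest list 3 peak lay a median of 12104 bp away, from 5 bp to 866546 bp, and 57 of the 655 regions (8.70%) had one within 500 bp. The closest case (chr1:7275203-7276312, TAIR10), 1105 bp from AT1G20910, was 5 bp from a list 3 peak, with a list 1 fold of 1.17 and a list 2 fold of 2.06. The next (chr1:8839167-8840883), inside AT1G25230, was 8 bp away, with 1.10 and 2.05. Just outside the rule, the region of all 3 lists with the smallest list 3 overlap (417 bp) lay near BASL, a gene of asymmetric stomatal divisions, and had folds of 1.36, 4.70 and 7.21 in lists 1 to 3.

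Regions of this kind held nearly all list 1 peaks at the caller's ceiling. Of the 20 list 1 peaks at the caller's highest score of 3100, 19 represented a region of lists 1 and 2 without list 3, and 13 of these 19 were in the gene-poorest 10% of 500 kb bins. More than 1000 list 2 tags were found in 21 of the 655 regions, against 23 of 785 in all 3 lists, 2 of 1626 in lists 2 and 3 and 0 of 1005 in list 2 alone. Of the 21, 11 were in gene-poor bins. The levels of 1000 tags and of 10 bp and 20 kb used below were chosen after the values were seen. Copy number in the seedlings was not measured here, so its part in these peaks was not tested.

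Stretches around ribosomal RNA genes held rows of such regions. Cytosolic ribosomal RNA is transcribed from long tandem arrays, of which the reference assembly shows only fragments. On chromosome 3, 10 of the regions stood in a row between 14195518 and 14202933, around 2 annotated rRNA genes (AT3G41768 and AT3G41979). No region of list 1 alone, of list 2 alone or with a list 3 peak lay within that row. Their list 2 tags ran from 376 to 1678 with a median of 832, list 2 folds lay between 1.4 and 2.62, and list 1 folds between 1.13 and 2.57. In 9 of the 10 the nearest list 1 summit was within 10 bp of the list 2 summit, with a median distance of 0 bp, and in 9 both lists began at the same base.

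Several list 2 peaks of that row were alike in every column. The peaks at 14198046 to 14198284, 14198884 to 14199122, 14200941 to 14201179 and 14202695 to 14202933 were each 239 bp wide and held 376 tags, with a fold of 1.99 and a score of 177.56. Their list 1 tag values were close but not equal, at 1225, 1340, 1315 and 1190. The header of list 2 allowed at most 4 tags at one position and that of list 1 at most 3. The part of this limit in the equal values was not tested.

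The left end of chromosome 2, where a nucleolus organizer lies, held the other rRNA copy. There 4 regions stood between 949 and 10523, around the rRNA genes AT2G01010 and AT2G01020, again with no region of another class among them. At 949 to 2185 the folds were 2.57 in list 1 and 3.44 in list 2. At 2468 to 3662 they were 3.30 and 3.52. At 5508 to 6182 they were 2.73 and 2.48, and at 9603 to 10523 they were 1.73 and 3.07. Their list 1 scores were all 3100. Over the whole genome 6 of these regions were within 500 bp of an annotated rRNA gene, against 0 in each of the other 3 classes with a list 2 peak.

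Other regions with many tags stood elsewhere. The 5521 bp list 2 peak at 13536190 to 13541710 on chromosome 3, over the transcribed pseudogene AT3G33002, held 19764 list 2 tags with a fold of only 1.49 and a list 1 fold of 0.63. The region at 13591580 to 13592677 on the same chromosome held 1692 list 2 tags, with a list 1 fold of 2.14 and a list 2 fold of 2.66. On chromosome 2 the regions at 3375021 to 3379056 and 3381707 to 3386783 held 10325 and 11507 list 2 tags, a list 2 fold of 1.46 for the former and 1.05 for the latter, and list 1 values of 0.62 and 0.58. This stretch of chromosome 2 is known to carry a large insertion of mitochondrial DNA. UBQ13, a ubiquitin gene that in the Columbia accession is interrupted by mitochondrial DNA, had 1582 list 2 tags (chr1:24275737-24276732), a list 1 fold of 0.56, a list 2 fold of 1.60 and both summits at the same base.

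Chromosome 5 held the second longest row, 6 regions between 11730784 and 11766197, all of them over 95 kb from the nearest protein-coding gene. Their list 2 tags ran from 231 to 3116 and their list 2 folds from 2.18 to 3.63, and 4 regions of list 1 alone lay among them. The region at 2937872 to 2939127 on chromosome 2, inside the pseudogene AT2G07080, had 4314 list 2 tags and folds of 1.11 and 1.85. The regions with a false discovery rate of 1% or less in both lists numbered 2. One, with 2472 list 2 tags and folds of 1.08 and 2.44, was at 5267566 to 5268609 on chromosome 4, over a pseudogene and a tRNA gene, and the other was the region beginning at 3375021 on chromosome 2.

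**Figure D2:**
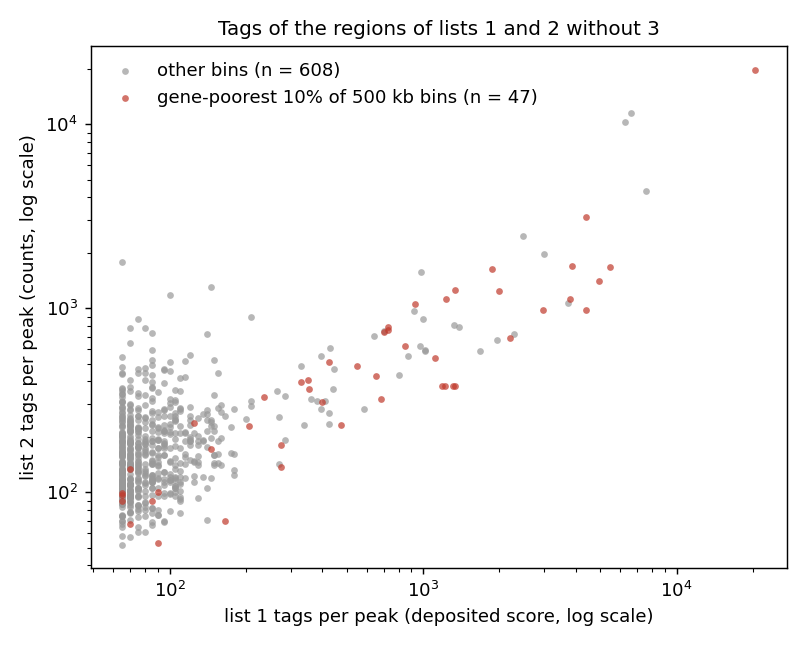
List 1 tags per peak as deposited (x axis, log scale) against list 2 tags per peak (y axis, log scale) for the 655 regions, each point 1 region at its peak with most tags. The 47 points in gene-poor bins range from the lower left to the upper right, with medians of 680 in list 1 and 396 in list 2, against 80 and 163.5 for the other 608.

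Tags of the lists rose together, with a lower coefficient where list 2 tags were capped. A cap narrows the range of list 2 tags, which can by itself lower a rank coefficient, so no weaker agreement is read from it. Spearman's coefficient between list 1 and list 2 tags was 0.415 over the 655 regions and 0.245 over the 528 with at most 300 list 2 tags, a limit chosen after the values were seen. For folds it was 0.179 and 0.175, and for scores 0.303 and 0.191. The points share the control library, so these values are descriptive.

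Summits of the lists lay close together. The nearest list 1 summit was within 10 bp of the list 2 summit in 147 of the 655 regions (22.4%, exact 95% interval 19.3 to 25.8) and at the same base in 31 (4.73%, interval 3.24 to 6.65). In regions of all 3 lists these shares were 12.6% (interval 10.4 to 15.1) and 1.66% (interval 0.885 to 2.82). The median distance was 63 bp against 95 bp. List 2 peaks were also narrower here, with a median width of 801 bp against 1167.5 bp in regions of all 3 lists. The part of peak width in these distances was not tested. Of the overlapping peak pairs, 41 of 712 began at the same base, against 12 of 905 in regions of all 3 lists, and 9 against 0 shared both edges. Of the shared starts, 9 were in the rRNA row of chromosome 3 and 2 in that of chromosome 2. Summit distance comes from the same peaks as the rule and was not tested.

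Positions with close summits lay outside genes and in gene-poor bins more often, in 60.5% of regions with summits within 10 bp and 32.7% of those over 500 bp apart for the former measure. The 147 regions with summits within 10 bp had a median list 2 fold of 2.44, 189 list 2 tags and a list 1 tag value of 110, and 28 of them (19.0%) lay in gene-poor bins. The 49 regions with summits over 500 bp apart had a median list 2 fold of 2.02, 263 list 2 tags and a list 1 tag value of 70, and 1 of them (2.04%) was in such a bin. Their list 2 peaks were wide, with a median of 1403 bp against 675 bp. At 1286945 to 1292432 on chromosome 3, near RALFL21 and IAA16, a list 2 peak of 5488 bp with 1787 tags, a fold of 3.28 and a false discovery rate of 0% met list 1 peaks whose nearest summit was 3286 bp away, the one with most tags having a fold of 0.70.

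**Figure D3:**
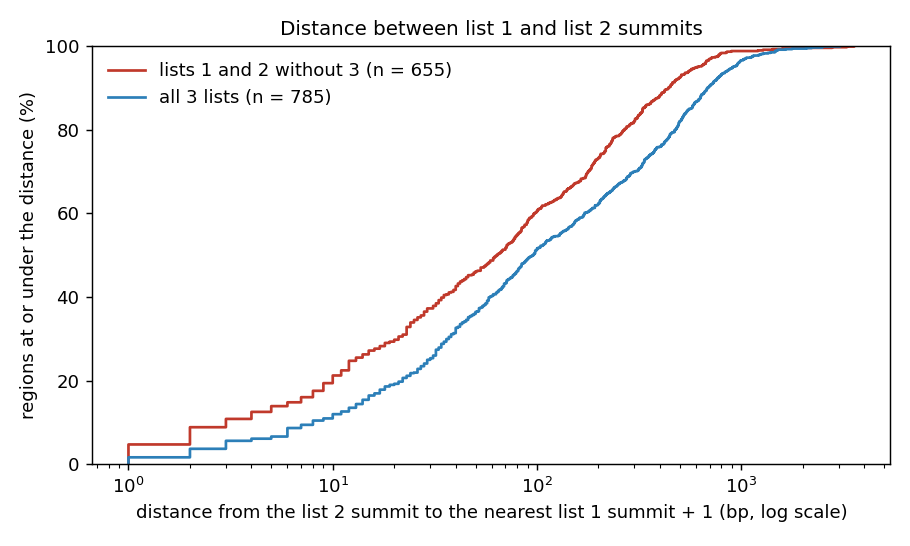
Cumulative share of regions (y axis, %) by the distance in bp, plus 1, from the list 2 summit to the nearest list 1 summit (x axis, log scale). The curve of the 655 regions of lists 1 and 2 runs above that of the 785 regions of all 3 lists, with 22.4% against 12.6% at 10 bp.

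The regions lay in genes more often than regions with peaks in both lists 2 and 3, with or without list 1. Of the 655 positions, 354 were outside every protein-coding gene (54.0%, exact 95% interval 50.1 to 57.9), against 65.7% in regions of all 3 lists and 67.1% in regions of lists 2 and 3. The differences were −11.7 percentage points (95% interval −16.7 to −6.61, adjusted p = 1.26e-05) and −13.1 points (interval −17.5 to −8.61, adjusted p = 2.27e-08) by a two-sided Fisher's exact test with Benjamini-Hochberg adjustment over 9 comparisons. These were the 2 planned comparisons, and adjusted over those alone Fisher's exact p was 6.98e-06 and 1.52e-08. The 7 others, against list 2 alone and on pseudogenes and gene-poor bins, were added after their values had been seen in a look at 8 types of annotated feature, so their p-values are not independent evidence. Against list 2 alone, at 53.5%, the difference was 0.513 points (interval −4.39 to 5.40, Fisher's exact adjusted p = 0.841). Of all bases up to the last annotated gene of each chromosome, 45.9% were outside protein-coding genes. At list 1 summits the share outside was 52.1% for these regions, 58.2% in all 3 lists and 34.3% in list 1 alone. In the 87 regions of lists 1 and 3 without list 2 it was 41.4%, lower than for these regions. Regions of list 3 alone have no list 1 or list 2 summit and were not placed.

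The lower share outside genes than in the classes with peaks in both lists 2 and 3 depended on how overlap was defined. When peaks were linked only by an overlap of 50% of each peak, regions were formed anew and 262 met the rule. These 262 need not be a subset of the regions above, because a list 3 peak could lose its link. Of the 262, 66.8% were outside genes. The difference to lists 2 and 3 was then 0.127 points (Fisher's exact adjusted p = 1.00), to all 3 lists −3.52 points (adjusted p = 0.634) and to list 2 alone 15.0 points (adjusted p = 1.11e-05). Among the better-ranked 50% of peaks the difference to all 3 lists was −7.33 points (Fisher's exact adjusted p = 0.0987), and at list 1 summits it was −6.16 points (adjusted p = 0.0220). The tests treat regions as independent and cover counting error over regions, not replicate error.

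Positions inside genes were spread further from the gene ends. The 301 in-gene positions were a median of 383 bp from the nearer gene end, and 36.2% fell in the outer 10% at either end. In regions of all 3 lists the median was 202 bp and the share 49.4%. In regions of lists 2 and 3 these values were 261 bp and 45.0%, and in list 2 alone 372 bp and 36.2%. A further 269 positions (41.1%) were outside genes and within 2 kb of one, and 24 (3.66%) were over 10 kb from any, against 0 of 785 regions of all 3 lists, 7 of 1626 of lists 2 and 3 (0.431%) and 21 of 1005 of list 2 alone (2.09%).

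Gene-poor DNA and pseudogenes, both measures picked after their values were seen, held a larger share of these regions than of those with peaks in both lists 2 and 3. In the gene-poorest 10% of 500 kb bins, 24 of 240 bins, lay 47 of the 655 positions (7.18%, exact interval 5.32 to 9.43). The shares were 0.255% in regions of all 3 lists, 0.984% in lists 2 and 3 and 3.78% in list 2 alone, with differences of 6.92, 6.19 and 3.39 points (Fisher's exact adjusted p = 1.14e-13, 1.16e-13 and 0.0037). With neighbouring regions within 20 kb counted once, the difference to list 2 alone was 0.00921 points (Fisher's exact adjusted p = 1.00), and the other differences, at 4.13 and 3.04 points, stayed past the threshold (Fisher's exact adjusted p = 4.33e-06 and 0.000551). Annotated pseudogenes, among which RefSeq counts many transposon-derived loci, held 23 positions (3.51%, interval 2.24 to 5.22). They held 0 of 785 in all 3 lists and 0.861% in lists 2 and 3, with differences of 3.51 and 2.65 points (Fisher's exact adjusted p = 2.46e-08 and 3.52e-05), and 2.69% in list 2 alone, 0.825 points below (interval of the difference −0.84 to 2.72, Fisher's exact adjusted p = 0.426). Of the other feature types, lncRNA genes lay within 500 bp of 5.50% of positions against 9.04%, 8.12% and 5.17% in all 3 lists, lists 2 and 3 and list 2 alone, misc_RNA genes of 1.98% against 1.27%, 0.861% and 1.79%, tRNA genes of 0.305% against 0.382%, 1.23% and 0.796%, and snoRNA genes of 0.305% against 0, 0.123% and 0.0995%, all without a test.

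**Figure D4:**
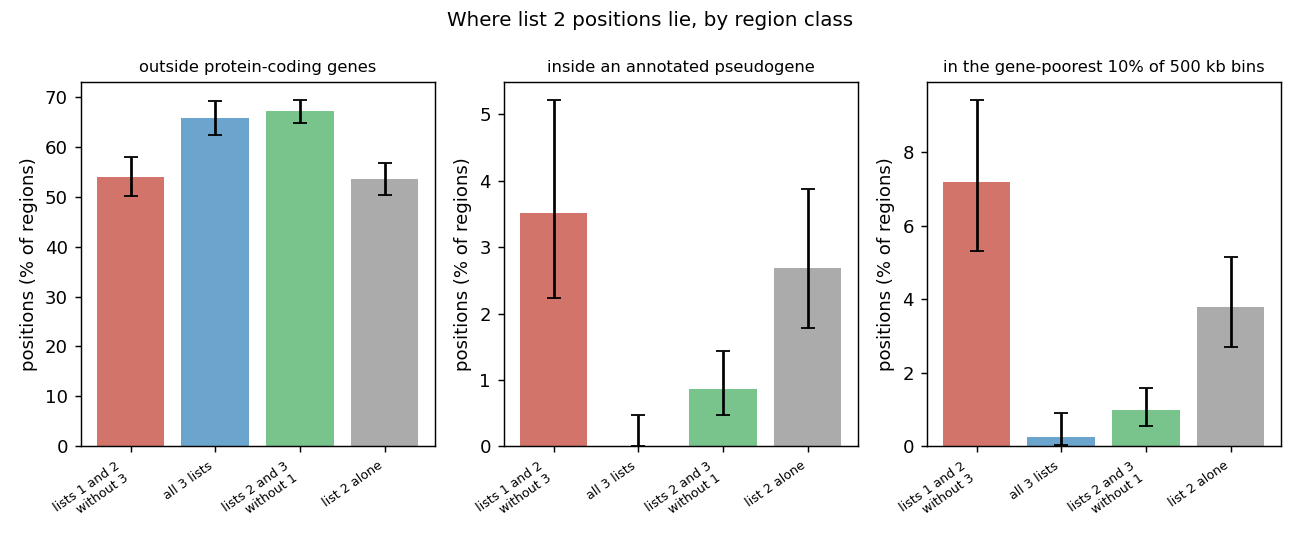
Share of positions (y axis, % of regions) outside protein-coding genes, inside annotated pseudogenes and in the gene-poorest 10% of 500 kb bins, by region class. Bars are shares and error bars are exact 95% binomial intervals over regions. The regions of lists 1 and 2 reach 7.18% in gene-poor bins, against 0.255% for regions of all 3 lists.

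Members in gene-poor bins differed from the rest in depth more than in fold. The 47 regions had a median of 396 list 2 tags and a list 2 fold of 2.38, and the other 608 had 163.5 tags and a fold of 2.20. Summits of both lists were within 10 bp in 59.6% of the former and 19.6% of the latter. Among the other 608 regions 51.3% were outside genes, and the differences to all 3 lists and to lists 2 and 3 were −14.3 and −15.7 points without gene-poor bins (Fisher's exact adjusted p = 3.99e-07 and 1.63e-10).

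Of the 10 highest list 2 folds, 2 lay in gene-poor bins. The top value, 5.14 in list 2 and 0.90 in list 1, was inside AT3G18282 at 6267650 to 6268700 on chromosome 3. CYP78A7, a cytochrome P450 of plant organ growth, had 4.85 and 0.86 at 3110726 to 3111351 on chromosome 5. ACP2, an acyl carrier protein of plastid fatty acid synthesis, had 4.70 and 1.31 inside the gene. ABCI7, a part of the plastid machinery for iron-sulfur clusters, had 4.47 and 2.30 at a summit 551 bp outside the gene, and ATPUP13, of the purine permease family, had 4.42 and 1.35. The authors' false discovery rates of the 10 highest list 2 folds ran from 9.9% to 75.04% in list 2. In 8 of these 10 the summits of both lists were at most 7 bp apart, and the highest list 2 fold of the 655 was still below the maximum of 14.46 in regions of all 3 lists.

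A gene was counted as reached when it held a position or when a position lay no more than 2 kb beyond it, and 976 of 27444 protein-coding genes (3.56%) were reached. The same count was 4.36% for regions of all 3 lists, 7.84% for lists 2 and 3 and 5.06% for list 2 alone. Known shade and PIF targets were reached at 2 of 20 genes (10.0%), against 8 of 20 by regions of all 3 lists 8 of 20 by lists 2 and 3 and 2 of 20 by list 2 alone.

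BR6OX2, which makes the last step to brassinolide, was one of these targets. It held the position inside the gene at 11811472 to 11812660 on chromosome 3, with folds of 1.81 in list 1 and 1.79 in list 2 and summits 795 bp apart. IAA19, an auxin-response repressor of hypocotyl growth, had folds of 0.57 and 1.88 at a position 1421 bp away, which lay inside the neighbour AT3G15548, and regions of all 3 lists reached IAA19 as well. BR6OX2 was also the sole gene reached of 15 brassinosteroid genes (6.67%), and regions of list 2 alone reached it as well. Of the 15, all 3 lists reached 3, lists 2 and 3 reached 5 and list 2 alone 2.

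Hormone families are small, so their shares stand on few genes. Over all protein-coding genes the share reached was 3.56%. It was 4.36% for all 3 lists, 7.84% for lists 2 and 3 and 5.06% for list 2 alone. Aux/IAA repressors were reached at 4 of 29 (13.8%), among them IAA16 at the wide peak described above, IAA5 with folds of 1.57 and 2.30, and ATAUX2-11 (the IAA4 gene) with 1.14 and 2.17, also reached by regions of all 3 lists. Regions of lists 2 and 3 reached 41.4% of the same family, and those of all 3 lists and of list 2 alone 10.3% each. SAUR genes, small auxin-induced genes of cell expansion, were reached at 3 of 80 (3.75%). SAUR22 and SAUR23 shared a single region with folds of 1.23 and 2.60, and SAUR20 had 1.04 and 2.26. SAUR20 was also reached by regions of lists 2 and 3. Of the 80 SAUR genes, all 3 lists reached 7, lists 2 and 3 reached 14 and list 2 alone 4. The auxin efflux carriers PIN7 and PIN4 made 2 of 8 PIN genes, each with its position inside the gene. Folds were 1.04 and 2.38 for PIN7 and 1.07 and 2.21 for PIN4. Of the 8, all 3 lists reached 0, lists 2 and 3 reached 1 and list 2 alone 1.

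Auxin response factors had 1 of 25, ARF11 with folds of 1.08 and 1.74, and auxin biosynthesis had 1 of 14, YUC10 with 1.59 and 2.32. Of the 25, all 3 lists reached 3, lists 2 and 3 reached 4 and list 2 alone 2. Of the 14 these counts were 1, 4 and 2. Ethylene genes had 2 of 16, where all 3 lists reached 5, lists 2 and 3 reached 4 and list 2 alone 4. CTR1, the kinase that represses ethylene signalling, was 153 bp from a position inside HSFA3 with folds of 0.62 and 2.46, and EFE, an ACC oxidase, was 1762 bp from one with 1.67 and 1.93. No member of the gibberellin list (23 genes), the PIF family (6), the circadian clock (16) or the light-harvesting antenna (21) was reached. The share over all protein-coding genes was 3.56%, so none in lists this small is not read as a result about them. List 2 alone also reached 0 gibberellin, PIF family and antenna genes, and 3 of the 16 clock genes. Regions of lists 2 and 3 reached 6 gibberellin, 1 PIF family, 3 clock and 2 antenna genes, and those of all 3 lists 4, 2, 1 and 1.

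Light signalling genes were reached at 2 of 22 (9.09%). Of the 22, all 3 lists reached 6, lists 2 and 3 reached 4 and list 2 alone 3. PHOT1, the blue-light receptor of phototropism, had folds of 0.99 and 1.91 at a position 241 bp outside the gene, and regions of the other 3 classes reached it as well. PHYA, the far-red light receptor that accumulates in darkness, lay under a list 2 peak of 4911 bp with 1310 tags and a fold of 1.64. The nearest list 1 summit there was 2785 bp away and a list 3 peak stood 294 bp from the region. Regions of all 3 lists reached PHYA as well.

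NAC factors, plant-specific regulators of organ boundaries, ageing and stress, had the largest number among the transcription factor families listed. Regions of lists 1 and 2 reached 12 of 100, with a median list 2 fold of 2.07 against 2.20 for all 655 regions. NAC019 (chr1:19698958-19699775), which acts in stress and jasmonate signalling, had a list 1 fold of 1.81, a list 2 fold of 4.33 and summits 2 bp apart. NAC074 had 2.24 and 3.58 inside the gene and NAC3 had 1.45 and 2.84. NAC3 was also reached by regions of list 2 alone. The other 9 had list 2 folds from 1.68 to 2.49. Regions of lists 2 and 3 reached 14 of the 100, list 2 alone 10 and all 3 lists 5, so the share is not called particular to these regions.

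The remaining families gave few hits. WRKY factors had 3 of 72, with WRKY38 at folds of 2.60 and 3.01, WRKY65 at 1.22 and 2.23 and WRKY7 at 0.89 and 1.77. WRKY7 was also reached by regions of lists 2 and 3. Of the 72, all 3 lists reached 2, lists 2 and 3 reached 11 and list 2 alone 5. MYB factors had 2 of 125 (1.60%), MYB3 with 1.00 and 2.01 and MYB4 with 0.95 and 1.87. Of the same family, lists 2 and 3 reached 14.4%, list 2 alone 10.4% and all 3 lists 5.60%. MYB4 was also reached by regions of all 3 lists and of lists 2 and 3. ERF and CRF factors had 3 of 38, CRF5 with 1.18 and 2.91, CRF4 with 1.11 and 2.60 and ERF71 with 1.45 and 2.40. Of the 38, all 3 lists reached 3, lists 2 and 3 reached 7 and list 2 alone 2. Expansins, which loosen the cell wall, had 2 of 30, EXPA9 with 0.56 and 3.32 and EXPB5 with 0.92 and 2.36. EXPA9 was also reached by regions of all 3 lists. Of the 30, all 3 lists reached 6, lists 2 and 3 reached 1 and list 2 alone 2. Wall-modifying XTH genes had 1 of 33, XTH17 with 1.02 and 1.68. Actins and tubulins had 2 of 24, ACT2 with 1.45 and 2.11 and ACT11 with 1.46 and 1.99. Of the 33, all 3 lists reached 1, lists 2 and 3 reached 6 and list 2 alone 4. Of the 24 these counts were 3, 6 and 1.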

How the data were processed

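The authors deposited 1 peak list per PIF4-Myc library. Per the file headers, peaks were called per library with MACS 1.4.0rc2 (lists 1 and 3) or 1.4.1 (list 2), with a p-value cutoff of 1e-05. Per the submitters' processing notes, CASAVA 1.8.0, Bowtie 0.12.7 and TAIR10 were used. Tags of lists 2 and 3 were deposited by the authors as counts per peak, and those of list 1 are treated as a score. The deposited score is −10 times log10 of p, the deposited fold is the caller's ratio, and the deposited false discovery rate is a percent. Wild-type libraries enter only as controls. Depth per position is unknown, so folds carry no interval, and intervals on shares cover counting error only.

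Genes came from RefSeq's TAIR10.1 annotation, taken to share nuclear coordinates with TAIR10. After shifts of 250 bp to either side the share of positions outside genes was 52.2% and 51.5%, against 54.0% unshifted. After shifts of 2000 bp it was 45.8% and 43.1%. In lists 2 and 3 without list 1 these shares were 64.7% and 65.2% at 250 bp, 44.5% and 46.9% at 2000 bp, and 67.1% unshifted. The annotation gives no strand, exon or sequence, so promoter motifs were not analysed here. Gene-poor bins are the 24 with fewest gene starts.

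The members and the 20 gene lists were chosen with earlier results of these data known, so no list was tested. Families were matched by symbol or synonym. Named, singly or within a row of regions, are the 10 regions of highest list 2 fold and of highest list 1 score (ties by tags). Also named are members at a false discovery rate of 1% in both lists, and up to 3 genes per list. Other named rows and deep regions were chosen after their values were seen. Shares were compared with Fisher's exact test (scipy 1.17.1) and Newcombe intervals (statsmodels 0.14.6). Of the 9 comparisons, 2 were planned; the other 7 (pseudogenes, gene-poor bins, list 2 alone) were added after their values were seen, among 8 feature types looked at. The levels of 10 bp, 20 kb, 300 and 1000 tags and the summit-distance classes were also chosen after seeing values. After counts had been seen, 3 gene lists (ribosomal proteins, histones, receptor kinases) were dropped because symbols could not define them, synonym matching was added and 4 gene IDs were left out. Alternatives were other overlap rules, peak thresholds, list sizes, summits, gene windows, left-out lists and, after seeing the data, leaving out gene-poor bins and counting neighbours within 20 kb once. Merging was tested on simulated lists of well-separated regions whose peaks shared a base, so close neighbours and very wide peaks were not covered.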

Additional observations from a re-analysis of the deposited data

How the results depend on the processing

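The number of regions, 655, was 262 with a 50% reciprocal overlap and 257 in the better-ranked 50% of each list. It was 198 with equal numbers of peaks and 9 at a false discovery rate of 1% or less. These settings and that of summits within 100 bp formed regions anew, so they can hold regions outside the 655. Only 2 of the 655 had a false discovery rate of 1% or less in both lists. Leaving out a list changes the rule itself: the number ran from 1434 without list 3 through 1660 without list 1 to 11208 without list 2, the share outside genes from 35.4% without list 2 to 60.4% without list 3, and the genes reached from 2113 without list 3 to 13851 without list 2. The share outside genes was 66.8% with a 50% reciprocal overlap, 58.7% with summits within 100 bp and 65.0% in the better-ranked 50%. Genes reached numbered 1802 with a 5 kb window and 619 with the nearest gene alone.

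Outside genes, the difference to lists 2 and 3 turned to 0.127 points and that to all 3 lists shrank to −3.52 points with a 50% reciprocal overlap (Fisher's exact adjusted p = 1.00 and 0.634), and the latter was −7.33 points in the better-ranked 50% (adjusted p = 0.0987). The difference to list 2 alone passed the threshold at 15.0 points with a 50% reciprocal overlap and at 6.69 points with summits within 100 bp. In pseudogenes it passed at 5.15 points with a 50% reciprocal overlap and at 3.90 points in the better-ranked 50%. In gene-poor bins it was lost, at 0.00921 points, with neighbours counted once. The cause was not tested. The rank and false discovery rate limits leave fewer peaks, and the overlap and summit rules change which peaks are linked. Of the other 64 values, 63 kept their direction and side of the threshold, or as counts and shares stayed within 1.5 times or the interval. The remaining 1, outside genes against list 2 alone without gene-poor bins, changed sign to −1.42 points (Fisher's exact adjusted p = 0.907). Only the outside-gene comparisons with all 3 lists and with lists 2 and 3 had been planned. No paired analysis was possible because the wild-type libraries have no list of their own here.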

Other observations

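MicroRNA genes lay within 500 bp of 8 of the 655 positions (1.22%), against 0.382% in regions of all 3 lists, 0.185% in lists 2 and 3 and 0.597% in list 2 alone, without a test. Of the 8, 3 belong to the ribosomal DNA rows and lie near MIR5642a and MIR5642b. The others include MIR166g, whose family restrains HD-Zip III genes, at 46 bp with folds of 1.47 and 1.99, MIR169a, whose family targets NF-YA subunits, at 461 bp with 0.77 and 2.80, and MIR780 at 280 bp with 0.97 and 4.75. The distances are to the annotated gene and carry no strand.

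Chromosome 2 gave the highest share of regions of this kind. There 132 of the 660 regions with a list 2 peak had a list 1 peak and no list 3 peak, against 13.7% on chromosome 1 and 15.8% to 16.3% on chromosomes 3 to 5.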
